A study of Mus musculus with 2 samples.

Results

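Aggrecan, versican and the genes that make, break down and bind hyaluronan were followed in mouse chondrocytes before and 24 h after a single period of cyclic stretch. The 9 genes, out of 20660 genes named on the arrays, were Acan, Vcan, Hapln1, Has1, Has2, Has3, Hyal1, Hyal2 and Cd44. A probe was assigned to one of them when its target was a RefSeq transcript of that gene. The brightest probe stood for the gene, and other probes are given beside it.

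Cartilage resists compression because aggrecan, a proteoglycan carrying many chondroitin sulphate and keratan sulphate chains, is held in the matrix as large aggregates. Each aggregate forms on a chain of hyaluronan, an unsulphated polysaccharide that the Has enzymes synthesise at the plasma membrane, and a link protein locks aggrecan onto that chain. Hyaluronidases cut the chain, and Cd44 anchors it to the chondrocyte surface and takes it up.

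The cells were primary chondrocytes from articular cartilage of 6-day-old C57BL/6J mice, isolated with collagenase D and seeded on fibronectin in silicon stretch chambers. After 48 h in the chambers they were stretched cyclically for 30 min, by 10% of their length at 0.5 Hz. RNA was taken before the strain and 24 h after it, and each time point was hybridised to 1 one-colour Agilent array, both on the same slide. The labels give no allele and no treatment other than the strain for either sample.

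With 1 array per time point there was no replicate error, no test was possible and no p-value is given. An unloaded culture kept for the same 24 h was not analysed here, so the strain and the further day of culture cannot be told apart. In a bulk sample, fewer cells of a type and less RNA per cell cannot be told apart either. All ratios below are log2 ratios, 24 h after minus before loading, of intensities scaled to the 75th percentile of each array. The ± value is the within-array error that the scanner software assigns to both spots. It is the software's own estimate and was nearly constant for bright probes, with a median of 0.2043 over genes well above background. For probes with at least 8 spots, the measured SD of the ratio between spots was smaller, at a median of 0.0872. Neither contains the spread between cultures.

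The arrays held 59305 spots other than controls, of which 59.14% before and 57.66% at 24 h were well above background by the scanner software's own call. No spot was saturated. The 75th percentile of intensity was 466.37 before and 466.15 at 24 h. In all, 14231 genes passed the background call on both arrays, here termed detected, with a median log2 ratio of -0.0143 and 5th and 95th percentiles of -0.63 and 0.51.

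The labelled cell type was checked against 19 chondrocyte genes, all of which were detected. Col2a1, the main cartilage collagen, read 499542.7 before and 474875.9 at 24 h, and the median log2 ratio of the list was -0.0436, with none past 2-fold. By more than 1 error, 3 were higher and 6 lower, where 20.1% and 22.7% of all detected genes were. Matn1 was the highest (0.56 ± 0.20), and Chad (-0.86 ± 0.20) and Col11a1 (-0.82 ± 0.20) were the lowest. All 5 fibroblast markers, which dedifferentiated chondrocytes also express, were detected too, and their summed intensity was 132770.1 before and 133722.5 at 24 h. All 4 macrophage markers with a probe were detected, with 2 higher by more than 1 error, Ptprc (1.14 ± 0.35) and Lyz2 (0.46 ± 0.21). Ptprc was past 2-fold but dim, reading 20.9 before and 46.1 at 24 h. The median log2 ratio of the 4 was 0.27, while their summed intensity, mostly from Csf1r, was 4090.3 and 3899.2. Also detected were 2 of 4 endothelial markers (summed 12893.0 and 12513.6), Cdh5 and Lyve1 being near background. Nearly all of that sum came from 1 Kdr probe (12773.8 and 12375.1). Another Kdr probe read 5.05 and 5.63, not well above background at either time. A single marker was detected of 3 for red cells (summed 72.9 and 73.0), of 3 for muscle (summed 1039.7 and 838.9) and of 2 for osteoblasts (summed 83.2 and 55.0), and the defining genes Hbb-bs, Alas2, Myod1, Des and Dmp1 were near background both times. Of 5 hypertrophic markers, 3 were lower by more than 2-fold, where 1.83% of all detected genes were, among them Col10a1 at a log2 ratio of -1.54 ± 0.20. Alpl was lower by less than that (-0.89 ± 0.20), and Mmp13 went the other way (0.49 ± 0.20). The 3 adipocyte markers were higher, 2 of them by more than 2-fold (summed 862.3 and 1829.0). The part of other cells in the values below was not tested.

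Promoter sequences were found in RefSeq for 7 of the 9 genes, but for neither Has2 nor Has3. The 250 bases before the transcription start are shown for the genes that were higher at 24 h and have an entry, and for Vcan, which lies beside Hapln1 on chromosome 13 but differed from it in ratio. Each runs 5′ to 3′ in the direction of the gene, on build GRCm38.p6. Capitals mark a match to the NF-κB consensus in Acan and Hyal2 and to the SOX core ACAAT in Hapln1.
Acan, chr7:79052976-79053225, plus strand: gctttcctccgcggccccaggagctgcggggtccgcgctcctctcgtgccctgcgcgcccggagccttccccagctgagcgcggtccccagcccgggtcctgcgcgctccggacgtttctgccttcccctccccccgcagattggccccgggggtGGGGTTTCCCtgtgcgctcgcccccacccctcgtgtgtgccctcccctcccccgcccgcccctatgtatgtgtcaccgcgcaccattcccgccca
Hapln1, chr13:89540386-89540635, plus strand: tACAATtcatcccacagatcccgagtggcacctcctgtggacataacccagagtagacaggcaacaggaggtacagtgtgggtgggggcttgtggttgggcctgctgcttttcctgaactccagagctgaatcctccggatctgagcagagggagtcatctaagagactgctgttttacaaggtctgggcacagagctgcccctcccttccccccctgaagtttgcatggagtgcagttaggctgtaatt
Hyal1, chr9:107576700-107576949, plus strand: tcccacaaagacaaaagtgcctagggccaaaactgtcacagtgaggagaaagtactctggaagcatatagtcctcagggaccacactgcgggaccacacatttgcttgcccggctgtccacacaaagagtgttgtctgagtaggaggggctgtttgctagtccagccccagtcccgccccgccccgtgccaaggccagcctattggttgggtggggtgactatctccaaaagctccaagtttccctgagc
Hyal2, chr9:107568913-107569162, plus strand: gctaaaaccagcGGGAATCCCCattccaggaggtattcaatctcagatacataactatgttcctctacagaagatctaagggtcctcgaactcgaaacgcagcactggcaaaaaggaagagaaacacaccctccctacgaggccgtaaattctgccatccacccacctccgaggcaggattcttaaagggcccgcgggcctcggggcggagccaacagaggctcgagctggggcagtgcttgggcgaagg
Vcan, chr13:89742513-89742762, minus strand: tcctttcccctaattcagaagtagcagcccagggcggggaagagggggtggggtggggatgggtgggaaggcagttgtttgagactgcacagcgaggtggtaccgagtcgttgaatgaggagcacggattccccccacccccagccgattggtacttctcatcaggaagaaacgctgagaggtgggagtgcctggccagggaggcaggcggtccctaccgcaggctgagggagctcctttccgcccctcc

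Each window of 300 bases, from 250 before to 50 after the start, was searched on both strands for 4 motifs: the NF-κB consensus, the SOX core ACAAT, the hypoxia-inducible factor core ACGTG and the cyclic AMP response element TGACGTCA. The NF-κB consensus matched at -95 to -86 in Acan and at -238 to -229 in Hyal2, counted from the transcription start. It was present in 4.51% of all 32851 RefSeq windows. Hapln1 held the SOX core at -249 to -245, a motif found in 31.0% of windows. The other matches were a hypoxia-inducible factor core at -29 to -25 in Cd44 (19.6% of windows) and a cyclic AMP response element at -83 to -76 in Has1 (1.79% of windows). No match overlapped another, and Vcan and Hyal1 held none of the 4. The Acan window was the richest in G and C of the 7 at 74.0%, against 54.3% in Hapln1 and a median of 52.7% over all windows. These matches are letters in a window and carry no information on binding.

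Of the 9 genes, 8 were detected on both arrays and Has3 on neither. Of the 8, none was past 2-fold in either direction, where 0.668% of all detected genes were higher and 1.83% lower by that much. None was past 1.5-fold, against 3.65% higher and 5.84% lower among all detected genes. Acan, Hapln1, Has2, Hyal1 and Hyal2 were higher by more than 1 within-array error, which is 5 of 8 where 20.1% of detected genes were, and 0 of 8 were lower, where 22.7% were. These counts rest on the brightest probes. With the mean over detected probes, 5 were still higher and 1 was lower, Cd44 at -0.56. This limit of 1 error was chosen after the values had been seen. For bright genes it was close to a fixed log2 ratio of 0.20. Among the 8564 genes above the 75th percentile of intensity, the same limit was passed by 19.0% upwards and 19.3% downwards. The median log2 ratio of the 8 was 0.30, against -0.0143 for all detected genes.

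**Figure D1:**
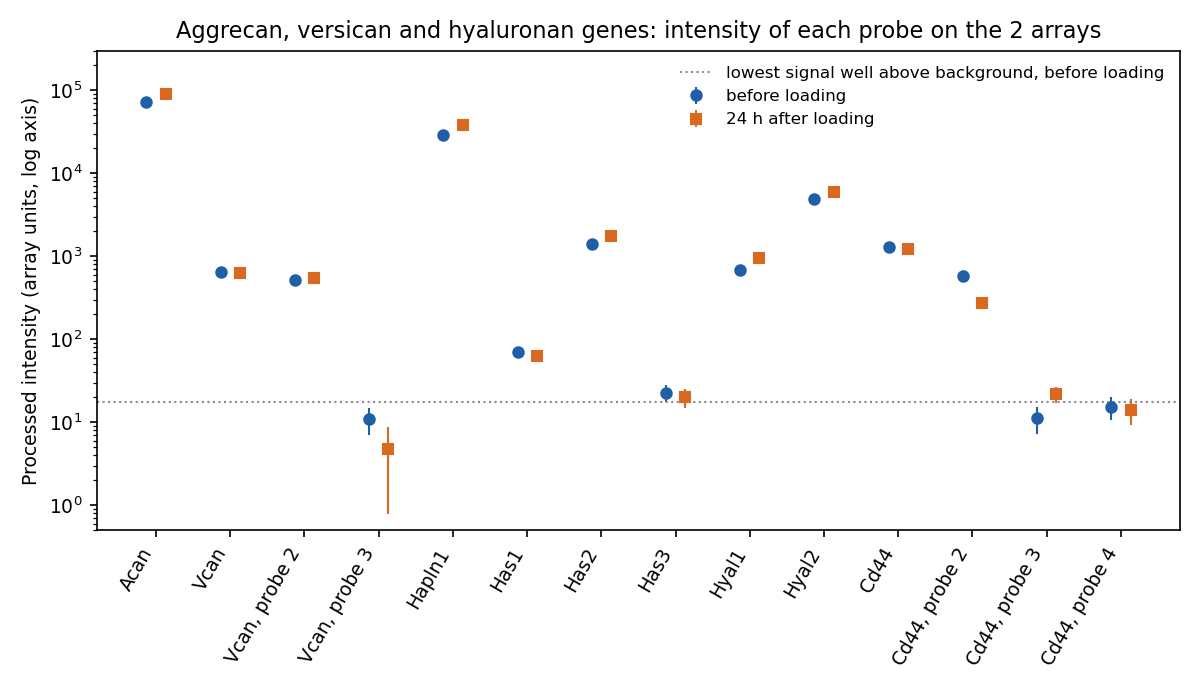
Processed intensity (log axis, array units) of each of the 14 probes of the 9 genes before loading (circles) and 24 h after (squares), with the scanner software's error as bars, probes of one gene numbered by brightness. The squares of Acan, Hapln1, Has2, Hyal1 and Hyal2 sit just above their circles, and the square of the second Cd44 probe sits below its circle; heights are not comparable between probes.

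Acan encodes the aggrecan core protein, the main proteoglycan of cartilage. Its single probe read 71349.5 ± 7135 before and 89997.7 ± 9000 at 24 h, so the later array was the higher one. The log2 ratio was 0.34 ± 0.20, a 1.262-fold higher value, and 88.8% of detected genes had a lower ratio. Among 29 neighbouring spots within 100 µm on the slide, 2 were higher and 0 were lower by more than 2-fold. Neighbour counts here and below include spots near background. The share over all spots is not given, so whether a count is unusual cannot be read from it.

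Hapln1, the link protein that clamps aggrecan onto hyaluronan, gave a ratio close to that of Acan. It read 29128.6 before and 38448.9 at 24 h, a log2 ratio of 0.40 ± 0.20 or 1.321-fold higher. The ratios of Acan and Hapln1 differed by -0.0655 ± 0.29, which is well within the error of the difference. A lower ratio than that of Hapln1 was seen in 91.7% of detected genes.

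Vcan encodes versican, the related hyaluronan-binding proteoglycan of early mesenchyme and of many soft tissues. Its brightest probe read 649.0 before and 636.1 at 24 h, and a second probe, designed to another versican transcript, read 524.2 and 539.8. The log2 ratios were -0.0281 ± 0.20 and 0.0429 ± 0.20, so neither probe differed from 0 by its error and the sign depended on the probe. The sign also turned positive with median or spike-in scaling. A further versican probe, to the same transcript as the second, did not reach the background limit before or after.

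A difference between 2 genes is free of any single scale factor per array, though not of a normalisation that depends on intensity. Acan exceeded Vcan by 0.36 ± 0.29 and Hapln1 exceeded Vcan by 0.43 ± 0.29, each a little more than 1 error of the difference. Over the processing settings the first ranged from 0.33 to 0.52 and the second from 0.39 to 0.52. Hapln1 and Vcan are neighbours on chromosome 13.

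Has2 is the synthase best known for the long hyaluronan chains of cartilage. It read 1399.6 before and 1741.1 at 24 h, a log2 ratio of 0.32 ± 0.20 or 1.245-fold higher, and 87.5% of detected genes had a lower ratio. Of its 29 neighbouring spots, 5 were lower by more than 2-fold, opposite in direction to the probe itself.

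Has1, a less active synthase, read 69.5 ± 7.88 before and 63.2 ± 7.38 at 24 h, a log2 ratio of -0.14 ± 0.23. These readings overlap within their errors. Has2 exceeded Has1 in ratio by 0.45 ± 0.31. Has3, which makes shorter chains, had a probe that was not well above background before or after loading (22.7 before and 20.0 at 24 h), so no ratio is given.

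Hyal1 and Hyal2 degrade hyaluronan in sequence: Hyal2, held at the cell surface, cuts long chains into fragments, and Hyal1, a lysosomal enzyme, cuts these further. Hyal1 read 675.7 before and 961.2 at 24 h, a log2 ratio of 0.51 ± 0.20 or 1.423-fold higher. This was the highest ratio of the 8 detected genes, and 94.9% of all detected genes had a lower one. Hyal2 read 4952.1 and 6012.7, a log2 ratio of 0.28 ± 0.20 or 1.215-fold higher. Their ratios differed by 0.23 ± 0.29, less than the error, and Has2 and Hyal2 differed by 0.035 ± 0.29. Has2, Hyal1 and Hyal2 were thus each higher on the 24 h array, but differences within an error of 0.29 do not show equal amounts. Has1 was not higher, and the other enzymes that degrade hyaluronan, given below, were mixed.

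Among the 9 genes, only Vcan and Cd44, the main hyaluronan receptor of chondrocytes, had a further detected probe. The detected probes of Cd44 differed by more than their errors, and those of Vcan did not. All 4 Cd44 probes were assigned to the same transcript. The brightest read 1286.1 before and 1228.7 at 24 h, a log2 ratio of -0.0653 ± 0.20. The second read 572.3 ± 57.4 and 276.2 ± 28.0, a log2 ratio of -1.05 ± 0.21, so it was 2.071-fold lower at 24 h. The brightest probe thus differed between the arrays by less than its error and the second by more.

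The gap between these Cd44 probes was 0.99, where the median range among the 3635 genes with more than 1 detected probe was 0.19. A gap at least as large was found in 66 of those genes, or 1.82%. One of the other Cd44 probes was not well above background at either time. The last was well above it at 24 h alone, reading 11.4 before and 21.7 at 24 h, with an at-least value of 1.258-fold higher. Has3 read 22.7 before loading without passing the call, so no rise is read from this probe. At-least values here and below are approximate for the same reason. Cd44 is known for extensive alternative splicing, but the positions of the probes within the transcript were not used here and the cause of the gap was not tested. With median or spike-in scaling the ratio of the brightest probe turned positive.

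**Figure D2:**
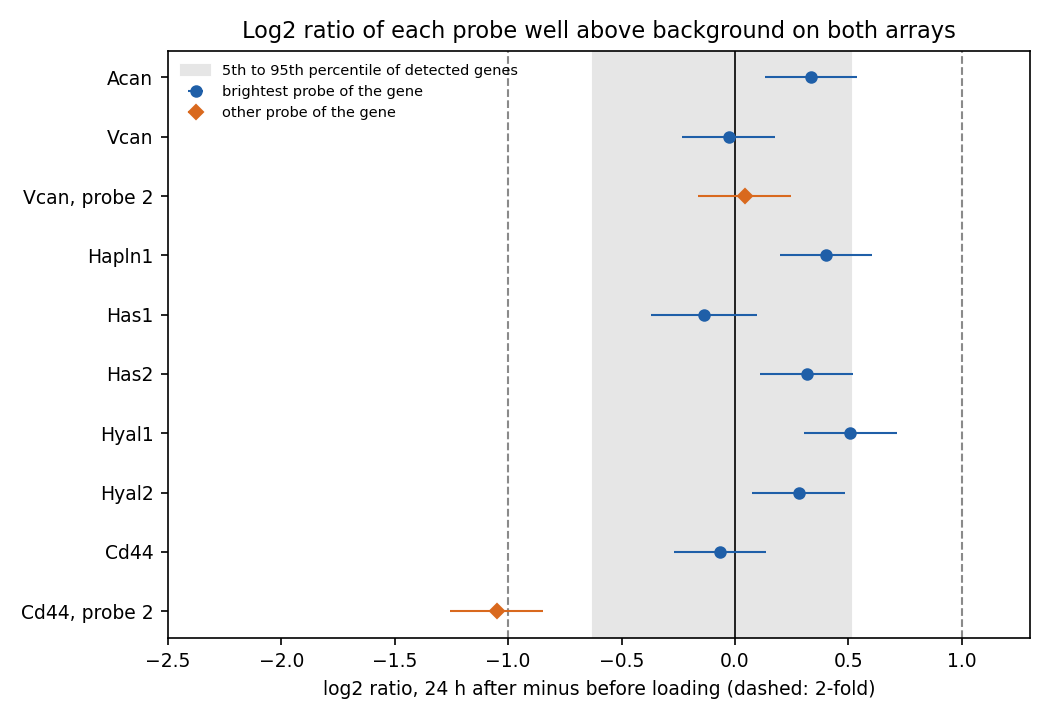
Log2 ratio (24 h after minus before loading) of the 10 probes detected on both arrays, with the within-array error as bars, the range from the 5th to the 95th percentile of detected genes shaded and 2-fold dashed. The brightest probes of Acan, Hapln1, Has2, Hyal1 and Hyal2 lie to the right of 0 by more than their error and inside the shaded range, while the second Cd44 probe, at -1.05, lies outside it on the left.

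**Figure D3:**
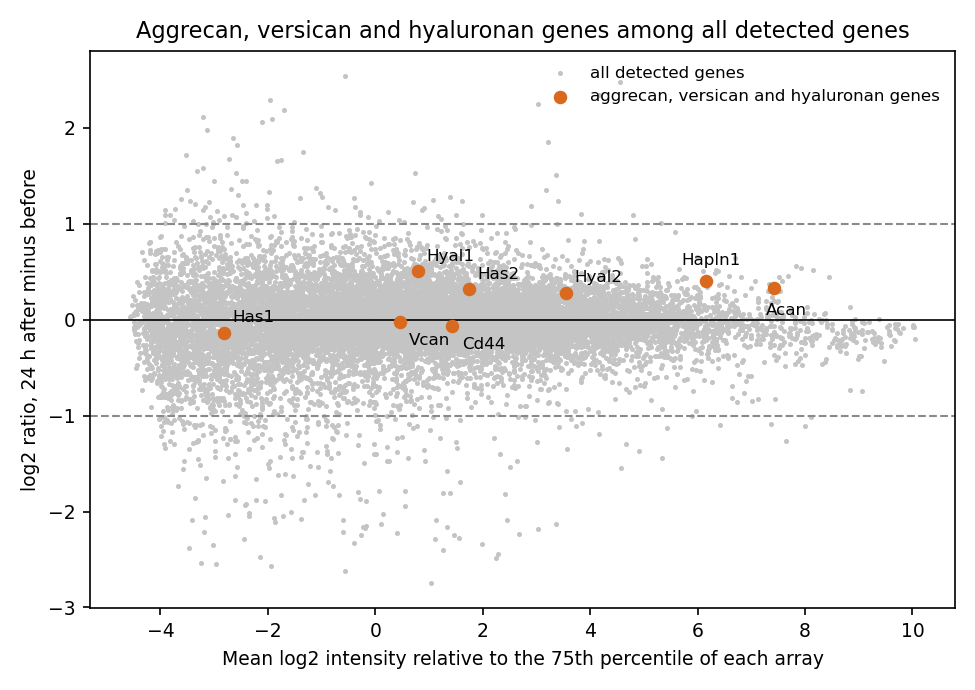
Log2 ratio (24 h after minus before loading) against mean scaled log2 intensity (0 is the 75th percentile) for the 14231 detected genes (grey), with the 8 detected genes of the aggrecan, versican and hyaluronan set in orange. The 8 span the range from dim (Has1) to bright (Acan), and all lie inside the 2-fold lines (dashed).

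Other genes of the same system were taken from a list of 39, which holds none of the 9. Of these, 27 were detected on both arrays, 5 on 1 array and 7 on neither. None was higher and 3 were lower by more than 2-fold, which are shares of 27 to be read against 0.668% and 1.83% of all detected genes. By more than 1 error, 7 were higher and 8 lower, against 20.1% and 22.7%. The median log2 ratio of the 27 was -0.11.

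The 3 lower genes were receptors or binding proteins. Hmmr, a hyaluronan-binding protein that is also part of the mitotic spindle, read 1402.3 before and 547.3 at 24 h, a log2 ratio of -1.36 ± 0.20. Stab2, a clearance receptor of sinusoidal endothelium, was dim and read 82.5 and 28.8 (-1.52 ± 0.32). Ambp, the precursor of bikunin, read 43.2 and 20.0 (-1.11 ± 0.35). With another background correction, normexp, the log2 ratios of the dim Stab2 and Ambp were -0.61 and -0.52, and neither was past 2-fold. Ambp also fell short of 2-fold with spike-in scaling (-0.99) and with quantile normalisation (-0.99).

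Enzymes that supply the sugar nucleotides for hyaluronan and chondroitin sulphate were all detected, 9 of 9, with their brightest probes between -0.16 and 0.33. Ugdh, which makes UDP-glucuronic acid, was at the low end, reading 14370.6 before and 12825.8 at 24 h. Slc35d1, which carries UDP-sugars into the endoplasmic reticulum for chondroitin sulphate chains, was at the high end with 1241.5 and 1562.1. Slc35d1 and Uap1 (0.21 ± 0.20) were the only ones of the 9 higher by more than 1 error, and no brightest probe was lower by that much. Gnpnat1 (0.15 ± 0.20) and Gfpt1 (0.0798 ± 0.20), of the hexosamine route, were within theirs on their brightest probes. A second Gfpt1 probe was at -0.41 ± 0.21 and the mean of both at -0.17, so the direction of Gfpt1 was not settled.

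Among the other lecticans and link proteins, Bcan, a lectican best known from brain, read 140.5 before and 215.4 at 24 h (0.62 ± 0.21), the highest ratio among the 27 genes detected on both arrays. With normexp it was 0.36, below that of Itih5 at 0.45. Hapln3, which lies next to Acan on chromosome 7, read 357.4 and 270.5 (-0.40 ± 0.21), opposite in direction to Acan and Hapln1. Hapln2 was well above background only at 24 h, with 3.70 before and 88.9 after, at least 5.145-fold higher. Ncan was likewise detected only at 24 h, at least 2.31-fold higher.

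The other enzymes that degrade hyaluronan gave mixed values. Cemip, which depolymerises hyaluronan, was at 0.47 ± 0.22 on its brightest probe and at -0.45 on a second, so its direction was not settled. Hyal6 was at -0.46 ± 0.30 and Cemip2 at -0.10 ± 0.20. Hyal3, Hyal4, Hyal5 and Spam1 were not detected at either time.

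Of the receptors for hyaluronan or its fragments, Tlr2 (0.26 ± 0.20) and Tlr4 (0.23 ± 0.21) were higher by just over 1 error and Layn (0.0413 ± 0.21) was not. Stab1 was detected before loading alone, at least 3.332-fold lower at 24 h. Tnfaip6, which transfers heavy chains of inter-alpha-trypsin inhibitor onto hyaluronan, read 454.4 before and 352.5 at 24 h (-0.37 ± 0.21), and its 2 other probes were lower as well (-0.54 and -0.19). Of the heavy chains themselves, Itih5 was at 0.56 ± 0.21. Itih2, the brightest of them, was at -0.0133 ± 0.20, and Itih1, close to background, was at -0.38 ± 0.39, both within their errors. Itih3 and Itih4 were detected at 24 h alone. Itih3 was at least 1.505-fold higher, and Itih4 was 1.522-fold higher than its own undetected signal before loading. Ptx3, a partner of Tnfaip6 in hyaluronan matrices, was at -0.31 ± 0.20, and the hyaluronan-binding protein Habp4 at -0.22 ± 0.20.

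**Figure D4:**
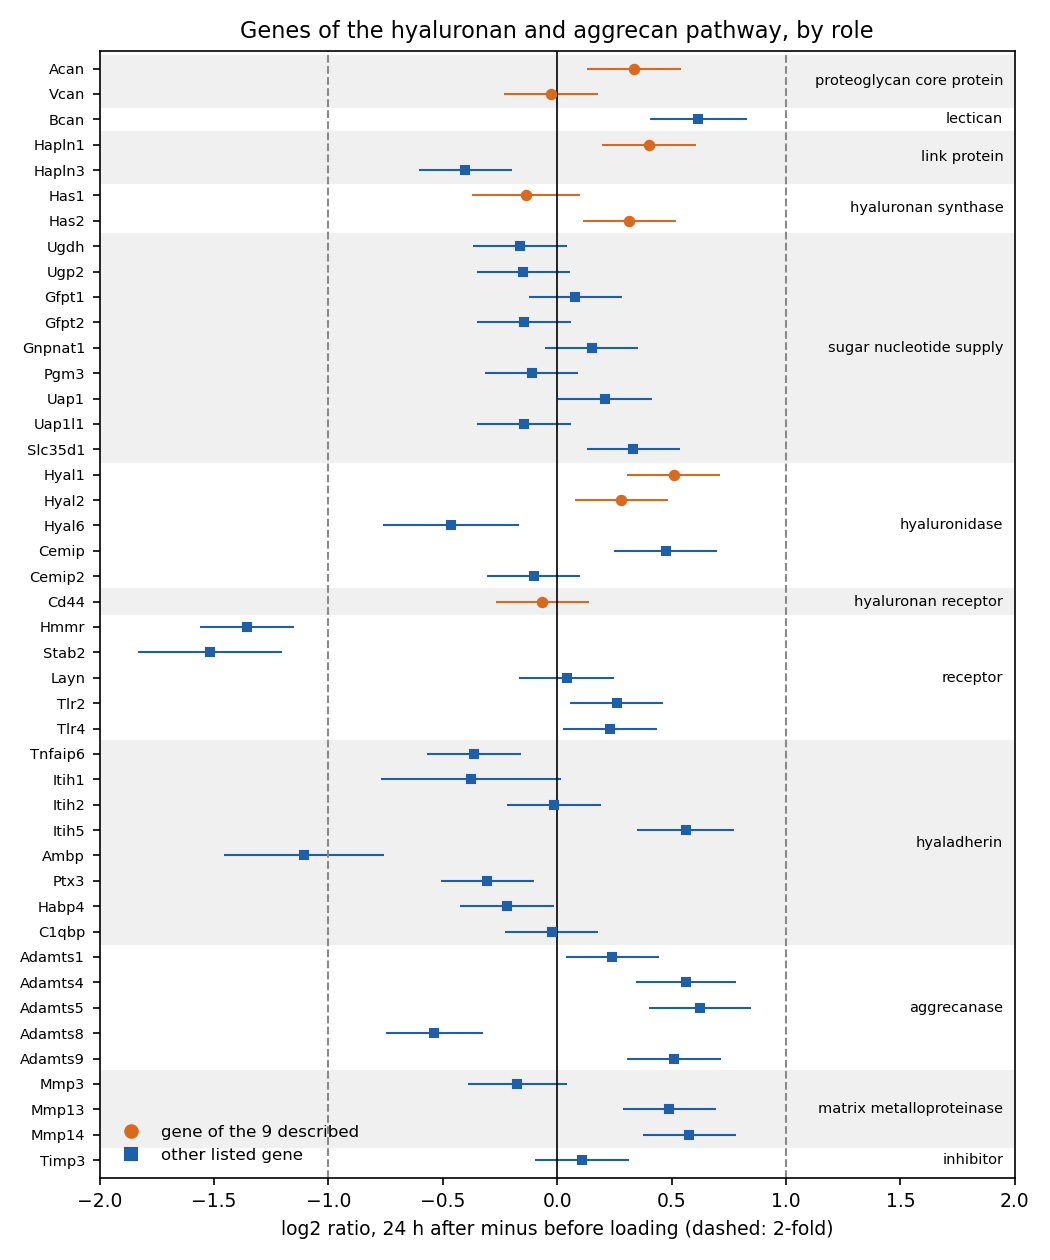
Log2 ratio (24 h after minus before loading) with the within-array error as bars for every listed gene detected on both arrays, grouped by role, the genes described first in orange circles and the others in blue squares, with 2-fold dashed. Stab2, Hmmr and Ambp lie beyond the 2-fold line on the left, the enzymes of sugar nucleotide supply lie close to 0, and most of the aggrecan-cleaving proteases lie to the right.

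Proteases that cleave aggrecan, with their inhibitor Timp3, made a list of 12, of which 9 were detected on both arrays. None was past 2-fold in either direction (0.668% and 1.83% of all detected genes). By more than 1 error, 6 were higher and 1 was lower (20.1% and 22.7% of all detected genes), and the median log2 ratio was 0.49. The list was chosen with results of these arrays known, so its direction is a description.

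Adamts5 and Adamts4, the principal aggrecanases, read 68.4 and 91.4 before and 105.3 and 135.0 at 24 h, log2 ratios of 0.62 ± 0.22 and 0.56 ± 0.22. The size for the dim Adamts5 depended on the reading: a second probe was at 1.31 ± 0.26, the mean of both at 0.97, and normexp correction gave 0.21. Mmp14, a membrane-bound metalloproteinase, and Mmp13, the main collagenase of cartilage, were at 0.58 ± 0.20 and 0.49 ± 0.20. Adamts9 (0.51 ± 0.21) lay in an area of the slide where 12 of 28 neighbouring spots were lower by more than 2-fold. Adamts8 was lower by more than 1 error (-0.54 ± 0.21), while Mmp3 was below 0 but within its error (-0.17 ± 0.22). Adamts1 was at 0.24 ± 0.20. Adamts15 was detected at 24 h alone. It was 3.663-fold higher than its own signal before loading, which did not pass the background call, so this value is no lower bound. Among its 27 neighbouring spots, 5 were higher by more than 2-fold. Timp3, which inhibits aggrecanases, was at 0.11 ± 0.20.

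The ratios of the 5 higher genes kept their sign under all 8 other ways of processing the arrays. For several of these ways that outcome was largely fixed. Each of the 5 genes has a single probe, so the mean over probes could not change it. The deposited table held the same intensities, and each rescaling of an array shifted all genes by the same amount. Acan ranged from 0.34 to 0.51, Hapln1 from 0.40 to 0.52, Has2 from 0.31 to 0.43, Hyal1 from 0.48 to 0.63 and Hyal2 from 0.28 to 0.40. Has1 stayed below 0, from -0.14 to -0.0200, but within its error of 0.23, so its direction is not settled. Vcan ranged from -0.0525 to 0.0878 and Cd44 from -0.56 to 0.0506, so neither has a settled direction. Spike-in scaling, which set the scale by added control RNA, moved the median of all detected genes from -0.0143 to 0.10 and the median of the 8 genes from 0.30 to 0.41.

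**Figure D5:**
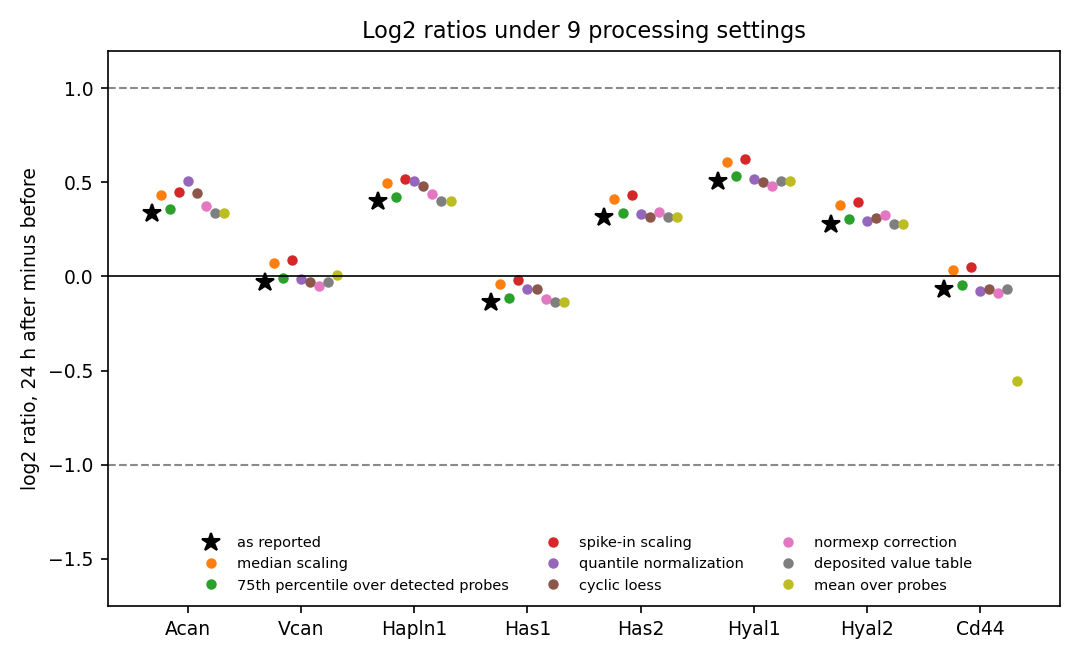
Log2 ratio (24 h after minus before loading) of the 8 detected genes under 9 processing settings, the reported value as a star and the 8 alternatives as coloured points, with 2-fold dashed. Acan, Hapln1, Has2, Hyal1 and Hyal2 lie above 0 under every setting shown, Vcan and Cd44 straddle 0, and the lowest Cd44 point, at -0.56, is the mean over its detected probes.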

How the data were processed

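Chondrocyte RNA from before the strain and from 24 h later was labelled in 1 colour and hybridised to 1 mouse 8x60K Agilent array per time point. The deposited values were processed spot intensities that the authors obtained with Agilent Feature Extraction 10.10.1.1 (per the labels of the submitters' processing), which had subtracted the background. A second deposited table held the same intensities on the linear scale, with no scaling between arrays (column medians 35.4 before and 32.9 at 24 h), and its values for 59050 spots differed from the scanner values by at most 0.497%.

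Control spots were dropped, as were 255 spots with an outlier call. Spots of one probe were averaged, which gave 55678 probes, and 27235 were named through RefSeq transcript accessions without their version. A probe was well above background when most of its spots were. Its error was the root mean square of the scanner software's errors, combined over both arrays on the log2 scale (median 0.2043), and between spots of the 268 detected probes with at least 8 spots the median SD of the ratio was 0.0872. The number of arrays limits the precision, and no test was run. At-least values were set against the lowest signal well above background on the array concerned (17.29 before and 17.80 at 24 h) or against the dim probe's own signal where that was higher. Some brighter spots did not pass the call, such as Has3 at 22.74 before, so these values are not strict bounds.

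Named genes were all 9 genes, the listed genes past 2-fold, the 10 highest and 10 lowest of the pathway list and the defining cell type markers. The genes and lists were chosen with earlier results of these data known. The scripts were tested on simulated arrays with planted changes well past 2-fold. Smaller ratios, such as those of the 9 genes, and the limit of 1 within-array error were not examined in that way. Alternatives changed the scaling, background correction (limma 3.58.1 in R 4.3.3), filter, probe summary and threshold, 1 at a time. The limit of 1 within-array error and the neighbouring genes were added after the data had been seen.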

Additional observations from a re-analysis of the deposited data

How the results depend on the processing

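The count of the 9 genes past 2-fold was 0 under every alternative run. The log2 ratio of Cd44 was -0.56 as the mean over its detected probes, against -0.0653 for the brightest, because the second probe enters the mean. Among all detected genes 355 were past 2-fold (95 higher, 260 lower). The count was 156 with normexp correction, 699 with detection on at least 1 array, 1475 with no filter, 1351 past 1.5-fold and 118 when 2-fold had to be passed by more than 2 within-array errors. Median scaling gave 130 higher and 205 lower, and spike-in scaling 138 and 186, so the share of higher genes moved with the scale. Of the 39 pathway genes 3 were past 2-fold, and this was 1 with normexp, 2 with spike-in scaling or quantile normalisation, 6 with detection on at least 1 array or no filter, and 0 with the allowance of 2 errors. Of the 12 genes of aggrecan-cleaving proteases and their inhibitor 0 were past 2-fold, 2 with detection on at least 1 array or no filter, and 1 past 1.5-fold. Of the 19 chondrocyte genes 0 were, and 2 past 1.5-fold. No paired analysis was possible because each time point has a single array, and likewise no replicate could be left out. Normexp was run on median spot signals, since mean signals were not used here. Dim probes are limited most: within-array errors were 0.32 for Stab2, 0.35 for Ambp and 0.39 for Itih1.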

Other observations

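Genes that overlap the 9 genes or lie next to them in the RefSeq order were read as well. Has2os, a non-coding RNA antisense to Has2 and overlapping it, read 894.5 before and 613.8 at 24 h, a log2 ratio of -0.54 ± 0.20, opposite in direction to Has2 (0.32 ± 0.20). Naa80, which overlaps Hyal1 and encodes the acetyltransferase of actin, read 635.1 and 852.7 (0.43 ± 0.20), in the same direction as Hyal1. Spaca6, which overlaps Has1, was dim at 46.5 and 31.4 (-0.57 ± 0.31).

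Edil3, a matrix protein gene on the other side of Hapln1 from Vcan, read 4161.6 before and 5636.4 at 24 h (0.44 ± 0.20), so Hapln1 had a neighbour with a like ratio on one side and Vcan on the other. Isg20, beside Acan, read 11009.5 and 8192.8 (-0.43 ± 0.20), and Hapln3 on the far side of Acan was lower too. Tusc2, beside Hyal2, was at -0.10 ± 0.20 and Ifrd2, beyond Hyal1, at 0.11 ± 0.20. Pdhx, beside Cd44, was at -0.0755 ± 0.20, and Xrcc4, beside Vcan, at -0.0598 ± 0.20.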
